A study of Mus musculus with 2 samples.

Results

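The ribosomal protein genes of mouse CD8 T cells are described here in 2 droplet single-cell RNA libraries. The set was chosen by symbol: genes named Rpl or Rps followed by a digit, the P stalk genes Rplp0, Rplp1 and Rplp2, and Rpsa, leaving out symbols of pseudogenes and the S6 kinases. That gave 87 of the 33696 genes in the deposited matrices. A UMI (a unique molecular identifier, which marks 1 captured RNA molecule) was found for 85 of them in the DHEA library and 84 in the CTRL library. Counting both libraries together, 83 reached 200 UMIs and were measured: 46 genes of the large subunit, 31 of the small subunit, 5 paralogs and Rps19bp1, which encodes a binding partner of the ribosomal protein Rps19 and enters the set by its symbol alone. Of the other 4, Rpl39l had 43 UMIs in DHEA and 74 in CTRL, Rpl3l had 2 and 0, and Rpl10l and Rps23rg1 had 0 in both.

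Ribosomal proteins assemble with ribosomal RNA into the small subunit, which reads the messenger RNA, and the large subunit, which joins amino acids. Most of their messenger RNAs begin with a run of pyrimidines at the cap, a feature through which mTOR signalling sets how strongly they are translated. A resting T lymphocyte is small and makes little protein, and it builds up ribosomes when it is activated and divides. A few members have a second, near copy in the genome, and the products of such copies can replace each other in the ribosome.

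The DHEA group was C57BL/6 (wild-type) mice given dehydroepiandrosterone, an androgen precursor, under the skin every day for 21 days to model polycystic ovary syndrome. The dose was 40 mg/kg, given in 20 µL of sesame oil. The CTRL group was C57BL/6 mice given sesame oil. CD8 T cells of the spleen were taken with magnetic beads, and each group has 1 library; the design text calls the cells pooled, and the sources used here give no number of animals per library. With 1 library per group no difference had a replicate check, no test was run, and every interval below is an exact 95% interval that covers counting error only.

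Cells were kept with at least 200 detected genes, under 10% mitochondrial UMIs, and a UMI each of CD8 and CD3 genes: 10699 of 12128 barcodes in DHEA and 8717 of 9495 in CTRL. They held 50077687 UMIs in DHEA and 49239407 in CTRL, with medians per cell of 4483 and 5615, and a median mitochondrial share of 2.02% in DHEA and 2.51% in CTRL. Malat1, a nuclear RNA, stood at 12934 CPM (UMIs per 1000000 UMIs of the cells summed) in DHEA and 16792 in CTRL. On a list of nuclear-retained transcripts, 2 of the 6 measured were higher in DHEA, against 49.5% of all genes. The libraries thus differed in depth, mitochondrial share and Malat1 as well as in treatment. The part of these in the results below was not tested. The filter asked for CD8 and CD3, and the helper co-receptor Cd4 had 4 UMIs in DHEA and 3 in CTRL. Markers of other lineages were present: 5 B cell markers summed to 287 CPM in DHEA and 266 in CTRL. The sums were 33.5 in DHEA and 15.1 in CTRL for 3 natural killer markers, and 14.7 and 6.05 for 5 myeloid markers. The kept cells of the 2 libraries had 40 barcodes in common.

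The Rps27 family carries several of the results, so its coding sequences are shown first, from GENCODE M21 transcripts (GRCm38), with the bases that differ from Rps27 in capitals. Rps27 (chromosome 3) encodes a zinc-binding protein of the small subunit, and Rps27rt (chromosome 9) and Rps27l (chromosome 9) are its copies.
Rps27: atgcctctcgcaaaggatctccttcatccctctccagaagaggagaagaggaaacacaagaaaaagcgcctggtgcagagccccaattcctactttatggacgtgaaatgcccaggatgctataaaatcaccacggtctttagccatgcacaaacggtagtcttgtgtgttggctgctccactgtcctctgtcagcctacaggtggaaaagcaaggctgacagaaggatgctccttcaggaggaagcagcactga
Rps27rt: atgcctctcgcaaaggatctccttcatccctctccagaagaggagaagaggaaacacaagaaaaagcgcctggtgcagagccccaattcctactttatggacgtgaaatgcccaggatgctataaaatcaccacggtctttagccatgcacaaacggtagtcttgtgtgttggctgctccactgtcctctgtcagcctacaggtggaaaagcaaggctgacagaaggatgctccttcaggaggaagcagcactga
Rps27l: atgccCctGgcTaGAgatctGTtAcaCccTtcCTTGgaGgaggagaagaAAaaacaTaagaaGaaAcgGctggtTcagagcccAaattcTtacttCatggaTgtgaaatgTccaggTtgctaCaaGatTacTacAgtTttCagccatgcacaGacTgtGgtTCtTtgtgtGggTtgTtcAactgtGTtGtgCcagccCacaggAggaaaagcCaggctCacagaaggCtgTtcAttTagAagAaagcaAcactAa

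The coding sequences of Rps27 and Rps27rt were the same at all 255 bases, so reads of the coding part cannot be assigned to either gene. Rps27l differed from Rps27 at 61 of 255 bases, an identity of 76.1%, and its reads can be told from those of both. Among the other pairs, identity over the aligned coding bases was 87.9% for Rpl36a and Rpl36al, 85.3% for Rpl39 and Rpl39l, 84.8% for Rpl10 and Rpl10l, 73.9% for Rpl3 and Rpl3l, 70.2% for Rpl22 and Rpl22l1, and 56.9% for Rpl7 and Rpl7l1. The deposited counts come from the 3′ ends of transcripts, and the split of reads between members and processed pseudogenes was not tested. The 2 members with the lowest ratios between the libraries, Rps29 (chromosome 12) and Rps28 (chromosome 17), encode very short small-subunit proteins, and the whole coding sequence of Rps28 from the same source is given here to show its size.
Rps28: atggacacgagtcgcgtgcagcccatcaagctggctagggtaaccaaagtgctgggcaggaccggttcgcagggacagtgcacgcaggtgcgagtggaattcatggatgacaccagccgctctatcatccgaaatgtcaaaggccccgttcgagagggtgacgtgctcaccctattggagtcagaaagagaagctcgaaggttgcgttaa

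Ribosomal protein genes took up about the same part of the captured RNA in both libraries. They held 17066012 UMIs in DHEA and 16617850 in CTRL, which is 34.1% of all UMIs in DHEA and 33.7% in CTRL, a difference of 0.33 percentage points. The median cell had 34.3% in DHEA and 33.7% in CTRL, and the range from the 5th to the 95th percentile of cells ran from 20.3% to 43.2% in DHEA and from 22.3% to 41.9% in CTRL. The 5 members with most UMIs were Rps24 (10955 CPM in DHEA and 10826 in CTRL), the P stalk gene Rplp1 (10271 and 10515), Rps16 (8478 and 7981), Rps15a (8453 and 7575) and Rpl13 (7791 and 7607). These are counts of 3′ ends and were not divided by gene length.

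Depth went with the share. In cells of under 2000 UMIs the share was 32.3% in DHEA (1862 cells) and 26.7% in CTRL (231 cells). It was 32.6% in DHEA and 31.0% in CTRL from 2000 to under 4000 UMIs, 33.3% and 32.8% from 4000 to under 6000, and 35.3% and 34.97% from 6000 to under 10000. At 10000 UMIs or more it was 33.8% in DHEA (257 cells) and 34.7% in CTRL (358 cells), the only one of the 5 depth classes where DHEA was lower. The gap between the libraries was 5.52 points in the shallowest cells, where CTRL had few cells and a higher mitochondrial share (median 1.83% in DHEA and 3.497% in CTRL), and 0.37 points from 6000 to under 10000 UMIs. DHEA held more shallow cells, and weighting the depth classes alike in both libraries gave a difference of 1.26 points in place of 0.33.

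**Figure D1:**
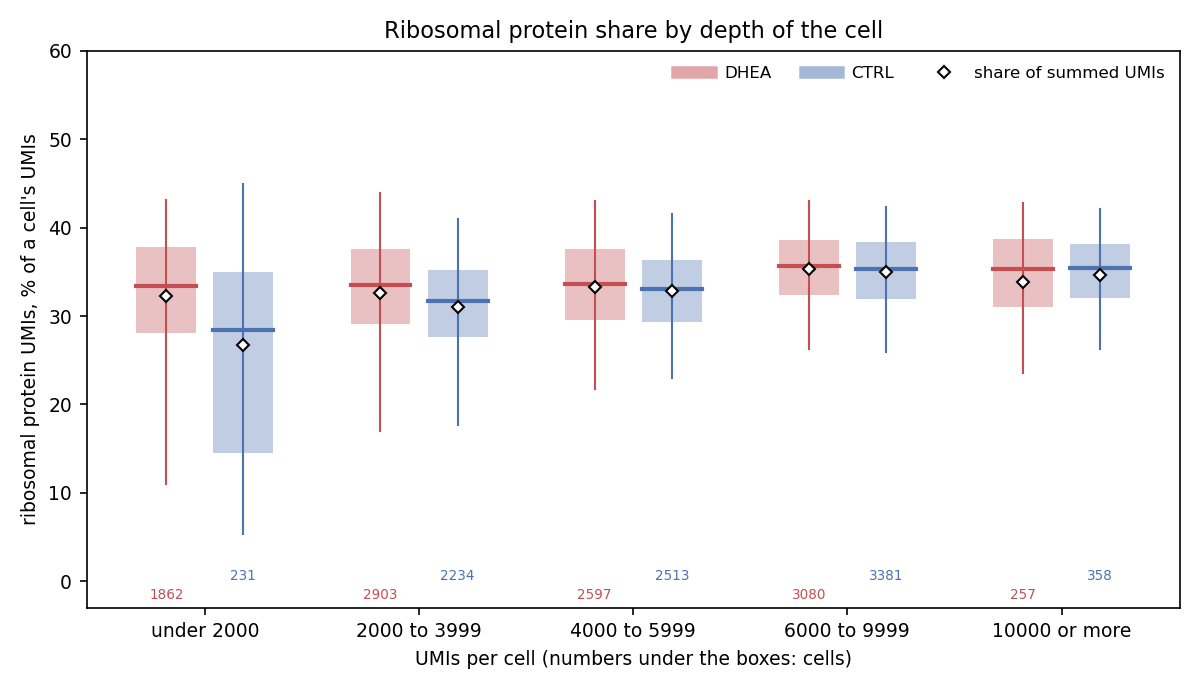
Ribosomal protein UMIs as a percentage of a cell's UMIs (vertical axis) by UMIs per cell (horizontal axis), DHEA in red and CTRL in blue. Boxes run from the first to the third quartile of cells, thick lines are medians, thin lines span the 5th to the 95th percentile, diamonds are shares of the summed UMIs, and the numbers of cells stand below; the summed share at under 2000 UMIs is 32.3% in DHEA and 26.7% in CTRL.

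Member by member, the trend with depth ran the same way. Cells of 6000 to under 10000 UMIs had a higher CPM than cells of 2000 to under 4000 for 74 of 83 members in both libraries, where 16.3% of all genes measured did so. The median log2 ratio over members was 0.12 in DHEA and 0.18 in CTRL, against -0.06 in DHEA and -0.10 in CTRL over all genes. Rpl4, of the large subunit, was among the exceptions, with a log2 ratio of -0.10 in DHEA and -0.01 in CTRL. Rps12, of the small subunit, was among those with the highest ratios, 0.21 in DHEA and 0.30 in CTRL. Ribosomal protein UMIs are themselves a part of the depth by which these cells were divided.

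The cells at the bottom of the distribution looked alike in both libraries. Ribosomal protein genes made up under 15% of UMIs in 280 cells of DHEA (2.62%) and 175 of CTRL (2.01%). The median mitochondrial share of these cells was 5.21% in DHEA and 6.24% in CTRL, compared with 1.92% and 2.48% in cells with 35% to 45%. Counted as CPM over the UMIs of all other genes, Malat1 stood at 37375 in the DHEA cells and 48605 in the CTRL cells of the lowest class, and at 17267 and 22388 in the 35% to 45% class. Gphn, which encodes the scaffold protein gephyrin, stood at 6770 in DHEA and 7240 in CTRL of the lowest class and at 2187 and 2345 in the 35% to 45% class. The glycolysis gene Gapdh ran the other way, at 291 in DHEA and 230 in CTRL of the lowest class against 989 and 894. Low-share cells thus carried more mitochondrial RNA, Malat1 and Gphn and less Gapdh in both libraries.

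States were then set by UMI gates on marker genes, none of them a ribosomal protein gene. A state here is a range of marker UMIs and not a cell type: 843 DHEA and 382 CTRL memory-phenotype cells had 3 to 5 UMIs of the memory markers, close to the gate of 3. The lowest shares were those of effector-phenotype cells, defined by granule proteases and Klrg1, and of proliferating cells, defined by cell-cycle genes. Effector-phenotype cells had 24.5% (24.4 to 24.6) in DHEA (238 cells) and 28.6% (28.4 to 28.8) in CTRL (37 cells). Proliferating cells had 25.2% (25.1 to 25.2) in DHEA (86 cells) and 28.7% (28.5 to 28.8) in CTRL (44 cells). Both lay below naive-phenotype cells, which had 34.4% in DHEA (5407 cells) and 33.8% in CTRL (6278 cells), and below the memory-phenotype cells with 34.7% in DHEA (3403 cells) and 34.6% in CTRL (1569 cells).

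Interferon-responding cells had 33.9% in DHEA and 32.7% in CTRL, HSP70-high cells 34.0% and 32.1%, and early-activated cells 32.8% and 30.9%. DHEA was higher than CTRL in these 3 states and in memory- and naive-phenotype cells, and lower in effector-phenotype and proliferating cells. The effector-phenotype cells were also lower at matched depth: in DHEA cells of 6000 to under 10000 UMIs they had 26.9% (56 cells), against 36.1% in naive-phenotype cells (1123 cells) of the same depth. Per cell, the effector-phenotype cells had a median of 872 ribosomal protein UMIs and 3202 other UMIs in DHEA, where naive-phenotype cells had 1293 and 2645. Proliferating cells of DHEA had a median of 1649 ribosomal protein UMIs and 4763 others, so their share was lower although their ribosomal protein UMIs were more numerous than those of naive-phenotype cells.

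Markers of other lineages moved with the effector gate. The 3 natural killer markers summed to 199.6 CPM in DHEA and 317 in CTRL effector-phenotype cells, against 2.47 and 1.52 in naive-phenotype cells, and the 5 myeloid markers to 4.51 in DHEA and 128 in CTRL effector-phenotype cells, against 2.65 and 1.34. In memory-phenotype cells the natural killer markers summed to 71.9 in DHEA and 54.6 in CTRL, and the myeloid markers to 8.51 and 18.2. The memory contrast below keeps cells with such UMIs. The B cell markers stood at 147 in DHEA and 140 in CTRL effector-phenotype cells, below the 302 and 275 of naive-phenotype cells. Of the natural killer markers Ncr1 was at 0 UMIs in DHEA and 8 in CTRL, and Klre1, which activated CD8 T cells can also carry, was highest at 183 and 46. Of the myeloid markers Csf1r, S100a8 and S100a9 were at 0 in both, Lyz2 had 0 and 1 UMIs, and Fcer1g, which natural killer cells also carry, had 5 and 31. Without the cells that had a UMI of any of these 8 markers, a setting chosen after seeing the data, the share was 25.02% (24.9 to 25.1) in 168 DHEA cells and 30.5% (30.3 to 30.8) in 20 CTRL cells, still below naive-phenotype cells.

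**Figure D2:**
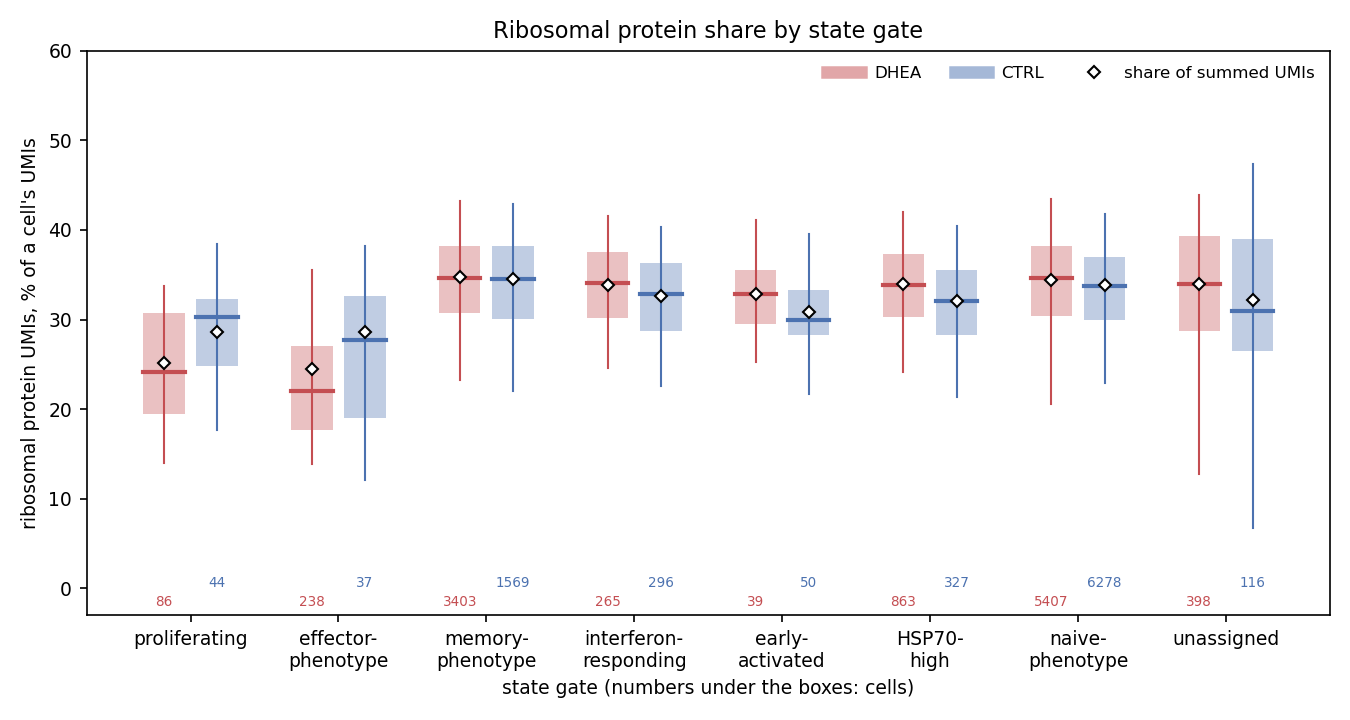
Ribosomal protein UMIs as a percentage of a cell's UMIs (vertical axis) by state gate (horizontal axis), DHEA in red and CTRL in blue, drawn as quartile boxes with medians, 5th to 95th percentiles, diamonds for the summed share and the numbers of cells below. Proliferating (25.2% in DHEA and 28.7% in CTRL) and effector-phenotype cells (24.5% and 28.6%) lie below the other states.

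Between the libraries, single members differed little. The log2 ratio of DHEA over CTRL, in CPM, was above 0 for 51 of 83 members, where 49.5% of 10515 genes were above 0. Its median over members was 0.03 with quartiles of -0.07 and 0.09, against a median of -0.00 over all genes with quartiles of -0.14 and 0.13. The genes at large include many with few UMIs, whose counting error is wider. A rule of size of 1.2-fold was met by 2 members that were higher in DHEA (10.2% of all genes) and by 2 that were lower (10.7% of all genes), and none reached 1.5-fold. Both large and small subunits were near 0, with medians of 0.03 in each.

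The 2 members past the rule on the low side were Rps29 and Rps28, whose products sit at the head of the small subunit and near the exit of the messenger RNA channel. Rps29 (ENSMUSG00000034892) had 185598 UMIs in DHEA (3706 CPM) and 248852 in CTRL (5054 CPM), a log2 ratio of -0.45 (-0.46 to -0.44). Rps28 (ENSMUSG00000067288) had 165943 UMIs in DHEA (3314 CPM) and 199829 in CTRL (4058 CPM), a log2 ratio of -0.29 (-0.30 to -0.28). The next lowest members were within 1.2-fold, among them Rpl4 (-0.20), Rpl31 (-0.19), Rpl37a (-0.16), Rpl12 (-0.15) and Rps27 (-0.15). Rpl12 is the protein on which the P stalk stands.

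Paralogs led the high side. Rpl7l1, a copy of the large-subunit gene Rpl7 whose product acts in ribosome assembly, had 3332 UMIs in DHEA (66.5 CPM) and 2475 in CTRL (50.3 CPM), a log2 ratio of 0.40 (0.33 to 0.48). Rps27l, a p53 target in human and mouse cells, had 5143 UMIs in DHEA (102.7 CPM) and 3821 in CTRL (77.6 CPM), a log2 ratio of 0.40 (0.34 to 0.47). Their partners were nearer to 0 or on its other side, Rpl7 at 0.05 and Rps27 at -0.15. The next highest were Rpl18 (0.16), Rpl27 (0.16), Rps15a (0.16), Rpl7a (0.12), Rps2 (0.12) and Rpl36al (0.11), all within 1.2-fold. Rpl22l1, a copy of Rpl22, had 637 CPM in DHEA and 676 in CTRL (-0.08), whereas Rpl22 had 2521 and 2340 (0.11). Rps27rt was at -0.08 (-0.13 to -0.03), and Rps19bp1 at 0.07 (-0.06 to 0.19).

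**Figure D3:**
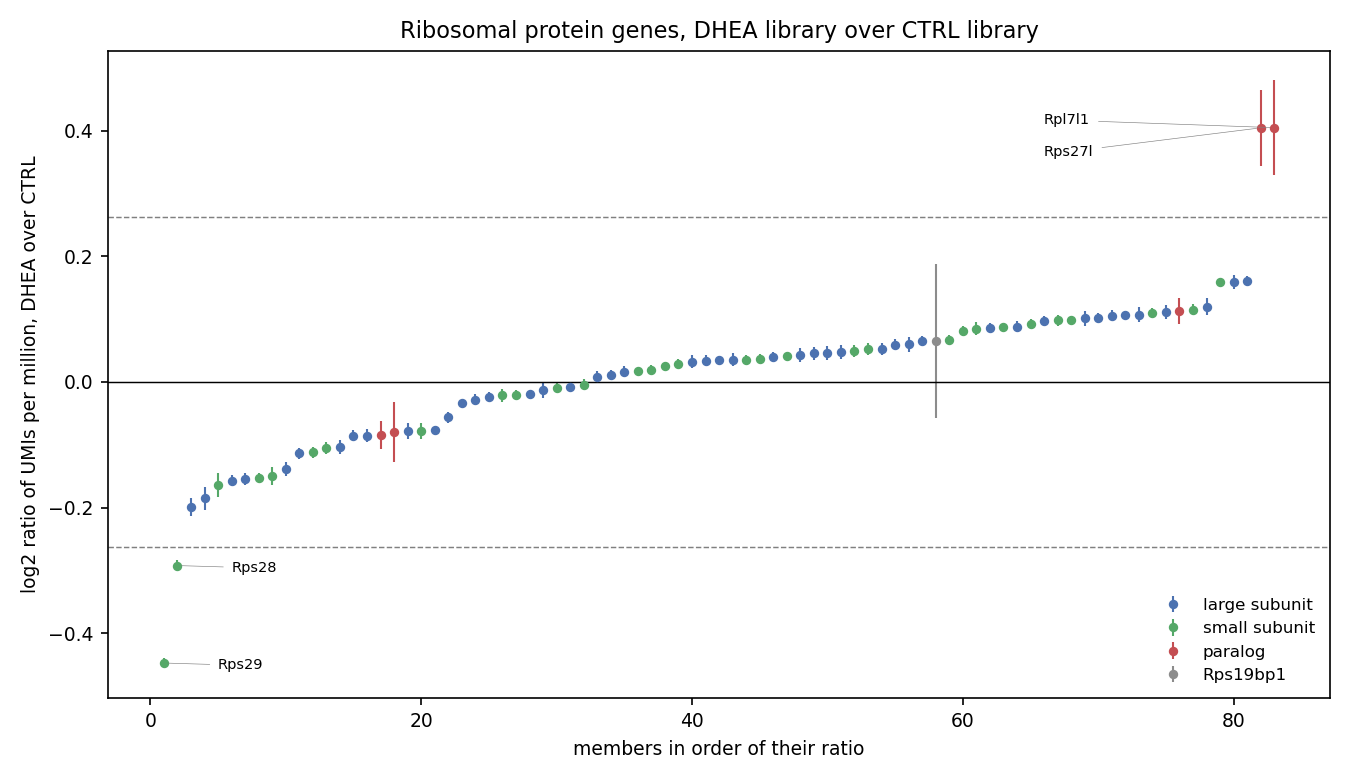
Log2 ratio of CPM, DHEA over CTRL (vertical axis), of the 83 measured members in order of their ratio (horizontal axis). Points are coloured by class, bars are exact 95% intervals for counting error, and dashed lines mark 1.2-fold; Rps29 (-0.45) and Rps28 (-0.29) lie below the lower line and Rps27l and Rpl7l1 (0.40 each) above the upper one.

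These members were then followed through the 5 depth classes and 8 states, which divide the same cells in different ways and so are not 13 independent comparisons. Rps29, Rps28, Rps27l and Rpl7l1 were chosen by their ratios over these same cells, so a shared sign across classes is in part built in. The ratio of Rps29 was below 0 in 13 of 13, from -0.63 to -0.30, and that of Rps28 in 13 of 13, from -0.68 to -0.07. In naive-phenotype cells Rps29 stood at 3893 CPM in DHEA and 5183 in CTRL (-0.41), and in memory-phenotype cells at 3583 and 4853 (-0.44). Rps27, Rpl31, Rpl37a, Rpl4 and Rps15 were also lower in DHEA in 13 of 13. Rps27l was higher in DHEA in the 10 classes with enough UMIs, from 0.24 to 0.63, and Rpl7l1 in 7 of 7, from 0.37 to 0.46. Rpl27 and Rpl36al were higher in 13 of 13. The unassigned cells, 1 of the 8 states, carried 769 CPM of the myeloid markers in DHEA and 3.69 in CTRL. The classes as a whole differed in level: the median member ratio was 0.28 in cells under 2000 UMIs and -0.20 in effector-phenotype cells. Taken relative to all ribosomal protein UMIs, which removes that level, Rps29 was still lower in 13 of 13 (-0.69 to -0.35) and Rps28 as well (-0.46 to -0.23). On that scale Rpl27 and Rpl36al were higher in 11 of 13, with lows of -0.09 and -0.05. Rpl18, Rps15a and Rpl7a were among those higher in 13 of 13 on it.

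**Figure D4:**
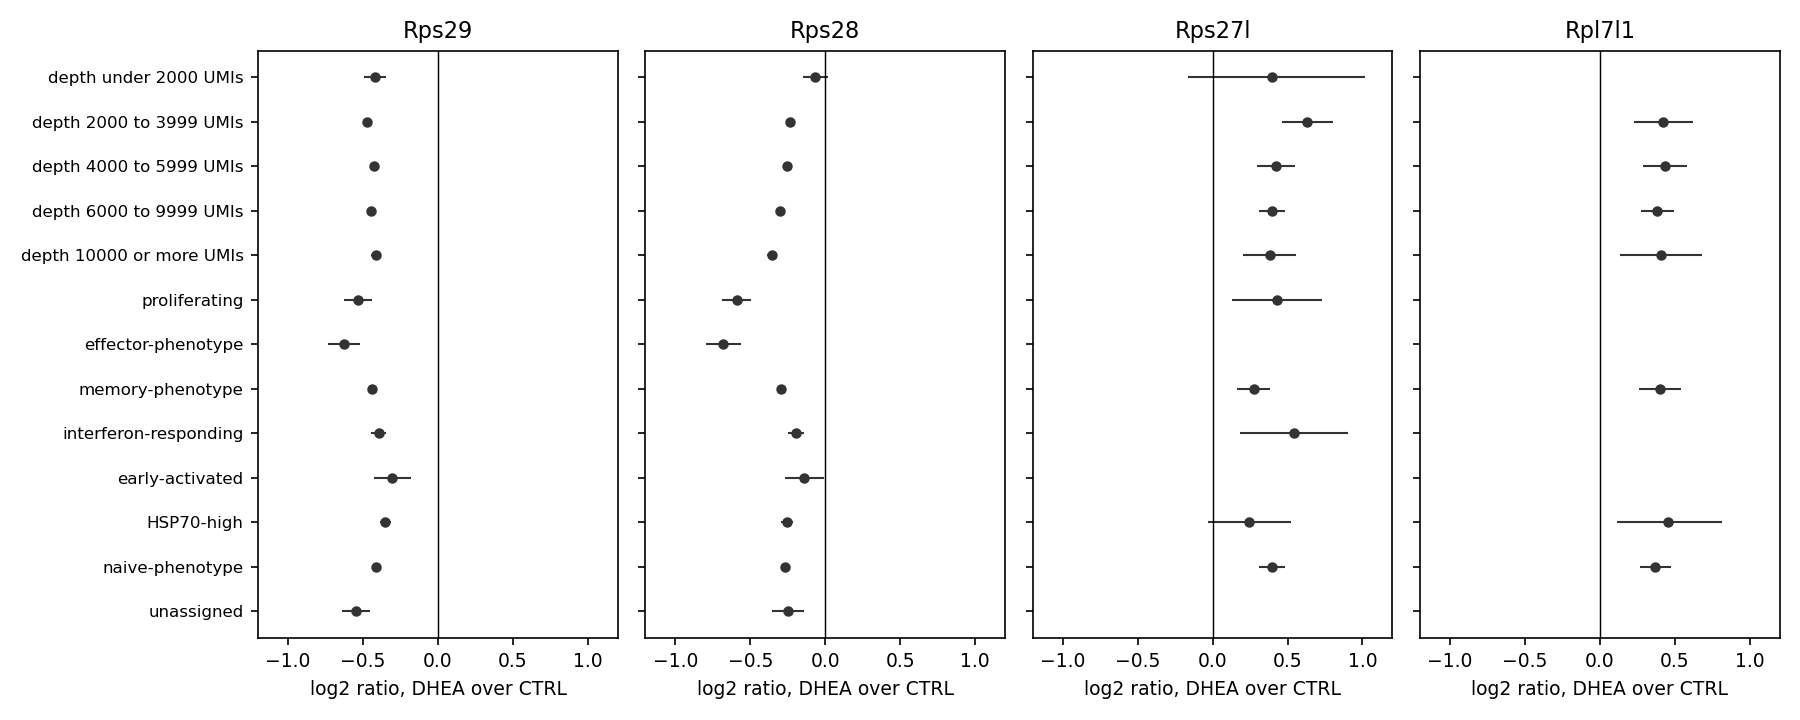
Log2 ratio of CPM, DHEA over CTRL (horizontal axes), for Rps29, Rps28, Rps27l and Rpl7l1 in each depth class and state (vertical axis). Points are ratios and bars exact 95% intervals for counting error; classes with too few UMIs are blank, and Rps29 lies between -0.63 and -0.30 throughout.

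By role, no group of members stood far from 0. The 4 P stalk genes (Rplp0, Rplp1, Rplp2 and Rpl12), whose products recruit elongation factors, had ratios from -0.15 to -0.01, but Rplp0 was above 0 with TMM scaling (0.014) and in thinned cells (0.025), and Rplp2 with TMM (0.0025). Of the partners of 5S ribosomal RNA, which hold back Mdm2 when they are free of the ribosome, Rpl5 was at -0.09 and Rpl11 at 0.05. Among 4 genes of the decoding site and messenger RNA channel, Rps2 (0.12), Rps23 (0.05) and Rps3 (0.04) were above 0 and Rps15 (-0.11) below. Rps6, the substrate of S6 kinase, was at -0.08, and Rps27a, made as a fusion with ubiquitin, at 0.03. A list of 10 short proteins, drawn up without a length limit, had a median of -0.10 with 3 above 0. It leaves out Rps27rt (-0.08), Rpl36 (0.05), Rpl36al (0.11) and Rps27l (0.40), which are about as short. Besides Rps29 and Rps28 the list held Rpl37a (-0.16), Rps27 (-0.15), Rpl38 (-0.11), Rpl41 (-0.09), Rps21 (-0.02), Rpl39 (0.01), Rpl37 (0.02) and Rpl36a (0.06). Across the 77 core members the ratio had no more than a weak relation to coding length (Pearson r 0.12, Spearman rho 0.20), coding GC content (-0.09 and -0.02) or level in CTRL (0.18 and 0.16); the members share the 2 libraries, so these describe the set and carry no p.

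Genes that work with the ribosome were read against the same 49.5% of all genes above 0. For the counts past 1.2-fold below, the shares of all genes were 10.2% higher and 10.7% lower. Of genes that belong to the ribosome under other symbols, Fau was at 0.10 and Rack1 at 0.04. Elongation factors and related genes were above 0 in 6 of 11 (median 0.04), from Eef2 (-0.20) to Naca (0.14). Initiation genes were above 0 in 18 of 29 (median 0.03), led by the helicase Eif4a1 (0.35) and the cap-binding protein Eif4e (0.31), which were the 2 past 1.2-fold. Ribosome biogenesis genes were above 0 in 27 of 40 (median 0.05), with 5 at least 1.2-fold higher, led by Bysl (0.46), Nhp2 (0.38) and Nop2 (0.36), whereas Heatr1 and Mybbp1a (-0.17 each) were lowest. Regulators of ribosome synthesis were above 0 in 8 of 13 (median 0.09), 1 past 1.2-fold upward and 3 downward. Myc was highest among them (66.3 CPM in DHEA and 54.8 in CTRL, 0.28), and Rictor (-0.30), Mtor (-0.28) and Tsc2 (-0.28) were lowest.

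Within each library, the members differed between memory- and naive-phenotype cells in a pattern that was alike in both. The log2 ratio of memory over naive was above 0 in both libraries for 49 of 83 members (31.4% of 8943 genes) and below 0 in both for 25 (44.3%). The other 9 differed in sign. In 5 of them the intervals of both libraries excluded 0, as for Rpl35 (-0.05 in DHEA and 0.03 in CTRL). Rps28 and Rps6 were also among the 9, but the interval of Rps28 spans 0 in CTRL and that of Rps6 in both libraries. Across the 83 members the ratios of the libraries had a Pearson r of 0.90 and a Spearman rho of 0.90; both libraries share the gates and the make-up of each transcript, and members are not replicates. The large-subunit gene Rpl29 was highest in DHEA, and in CTRL it lay below Rps12 and Rps27l. It had 2937 CPM in memory- and 2423 in naive-phenotype cells of DHEA (0.28, 0.26 to 0.29) and 2786 and 2330 in CTRL (0.26, 0.24 to 0.28). Rps12 was at 0.16 in DHEA and 0.32 in CTRL, and Rps27l at 0.19 and 0.32. Rps19bp1, of few UMIs, was at 0.11 (-0.08 to 0.30) in DHEA, an interval that spans 0, and at 0.23 (0.02 to 0.43) in CTRL.

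On the low side of the same contrast, Rpl31 was at -0.16 in DHEA and -0.12 in CTRL, Rpl7 at -0.14 and -0.12, Rps25 at -0.12 and -0.10, Rps29 at -0.12 and -0.09, and Rpl35a at -0.10 in both. The 6 highest and 6 lowest members had the same sign in both libraries in the 3 other settings tried (relative to ribosomal protein UMIs, thinned gates and a memory gate of 6 UMIs): with gates on cells thinned to 2000 UMIs, Rpl29 was at 0.25 in DHEA and 0.22 in CTRL and Rpl31 at -0.19 and -0.17. Members nearer to 0, such as Rpl11 and Rps3, changed sign in some settings, and with the thinned gates 28 members were higher in both libraries (34.2% of 8867 genes) and 41 lower (39.2%). The total share also turned with the setting. It was higher in memory-phenotype cells by 0.37 points in DHEA and 0.76 in CTRL, but lower by the thinned gates (-0.42 in DHEA and -0.22 in CTRL). With depth classes weighted equally it was near 0 in DHEA (-0.02) and lower in CTRL (-0.71), and the classes differed in sign in both libraries. In CTRL cells of 6000 to under 10000 UMIs it was 35.3% in memory- (863 cells) and 35.1% in naive-phenotype cells. From 4000 to under 6000 it was 31.2% in memory- (297 cells) and 33.2% in naive-phenotype cells. The equally weighted CTRL value leaves out cells under 2000 UMIs, where memory-phenotype cells numbered under 20.

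Effector-phenotype cells were lower than naive-phenotype cells for 77 of 83 members in both libraries, where 26.2% of 7986 genes were. At least 1.2-fold lower were 71 members in DHEA (24.0% of genes) and 35 in CTRL (30.2%), and the median ratio was -0.46 in DHEA and -0.25 in CTRL. The lowest in DHEA was Rps20, with 4148 CPM in effector- and 7470 in naive-phenotype cells (-0.85), and in CTRL 5241 and 7006 (-0.42). The 3 members above 0 in both libraries were Rps27l, Rpl7l1 and Rps19bp1, all of few UMIs. Rps27l was at 0.47 (0.22 to 0.72) in DHEA and 1.11 (0.61 to 1.57) in CTRL. The intervals of Rpl7l1 span 0, at 0.02 (-0.34 to 0.36) in DHEA and 0.28 (-0.56 to 1.01) in CTRL. So do those of Rps19bp1, at 0.51 (-0.05 to 1.02) in DHEA and 0.67 (-0.55 to 1.65) in CTRL. Rpl29 and Rpl27 were near 0, at -0.06 and -0.03 in DHEA and 0.10 and 0.01 in CTRL. Without the cells that had natural killer or myeloid marker UMIs, 69 of the 83 members were lower in both libraries (23.8% of 7953 genes), with medians of -0.42 in DHEA and -0.14 in CTRL.

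Proliferating cells gave the widest range. Ratios to naive-phenotype cells ran from -1.33 to 1.78 in DHEA and from -1.05 to 1.75 in CTRL, with 62 of 83 members lower in both libraries (42.4% of 7974 genes), 12 higher in both (33.8%), and a Pearson r of 0.96 between the libraries. Both ends were held by the Rps27 family whose sequences are given above. Rps27l had 320 CPM in proliferating and 92.9 in naive-phenotype cells of DHEA (1.78, 1.59 to 1.97), and 237 and 70.5 in CTRL (1.75, 1.5 to 1.99). Rps27 had 2030 in proliferating and 4990 in naive-phenotype cells of DHEA (-1.30, -1.37 to -1.23), and 2657 and 5493 in CTRL (-1.05, -1.12 to -0.98). Rps27rt, with the same coding bases as Rps27, was at -1.33 (-1.78 to -0.91) in DHEA and -0.73 (-1.14 to -0.34) in CTRL.

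The other members spread between these ends. Rpl12 (-1.11 in DHEA and -0.84 in CTRL), Rps24 (-0.88 and -0.63) and Rps29 (-0.79 and -0.67) were low in proliferating cells. Rpl41, the shortest protein of the ribosome (0.29 and 0.49), Rps2 of the messenger RNA channel (0.19 and 0.52) and Rpl7a (0.17 and 0.36) were above 0. Of the paralog pairs, Rpl22l1 was at 0.07 (-0.05 to 0.20) in DHEA and 0.27 (0.14 to 0.40) in CTRL, and Rpl22 at -0.23 and 0.01. Rpl7l1 was at 0.48 in DHEA and 0.21 in CTRL, and Rpl36al at 0.09 and 0.01. The intervals of these 4 values span 0 except that of Rpl7l1 in DHEA (0.12 to 0.82). These values rest on 86 DHEA and 44 CTRL cells with median depths of 6454 and 11305 UMIs, above the 3994 and 5310 of naive-phenotype cells.

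**Figure D5:**
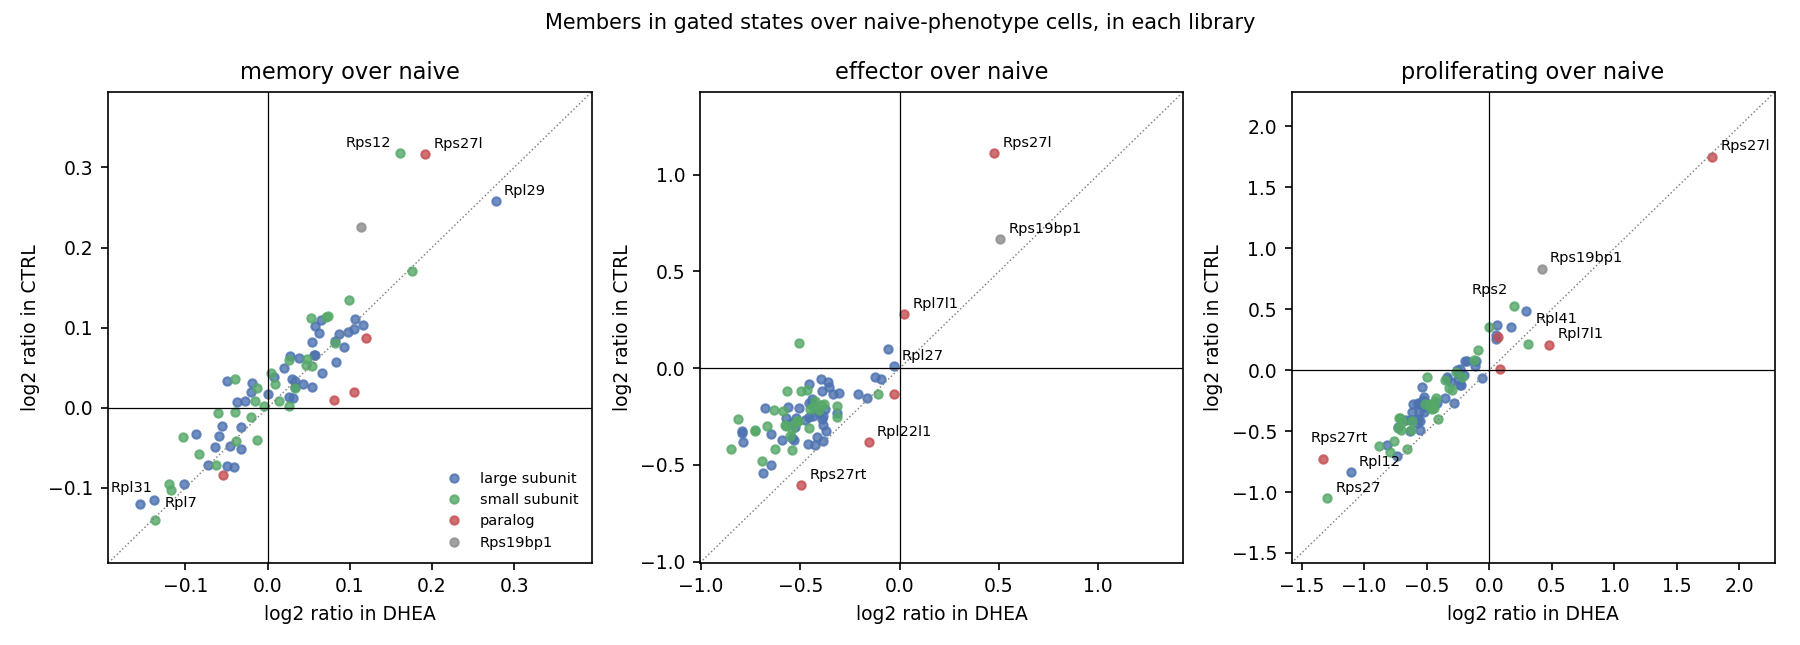
Log2 ratios of CPM over naive-phenotype cells for the 83 members, DHEA on the horizontal and CTRL on the vertical axis, in memory-phenotype (left), effector-phenotype (middle) and proliferating cells (right); points are coloured by class and the dotted line marks equal ratios. Rps27l stands apart at the top right in proliferating cells (1.78 in DHEA and 1.75 in CTRL), and Rps27 lies at the bottom left (-1.30 and -1.05).

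Promoter sequence was available for 67 of the 87 members (RefSeq, GRCm38.p6) and was searched for 4 short motifs. The letters CTTTCC, a pyrimidine run with its first base a C, were present on the coding strand from 10 bases before to 15 after an annotated start in 11 of the 67 genes (16.4%), against 1.24% of 27025 genes. Over the full 300 bases and both strands CTTTCC was in 53.7% of the members and 29.3% of all genes, the ETS-type motif CCGGAAG in 38.8% and 9.93%, the YY1-type motif AAGATGGC in 8.96% and 3.19%, and TATAAA in 10.5% and 15.7%; CTTTCC and CCGGAAG overlapped in 0 genes. Below are 30 bases around the start, 15 on each side, of Rps27 (chr3:90213634-90213663, minus strand), Rps27rt (chr9:114982725-114982754, minus) and Rpl18 (chr7:45718056-45718085, plus), which held CTTTCC (in capitals), and of Rps27l (chr9:66946071-66946100, plus), Rps28 (chr17:33824548-33824577, minus) and Rpl7l1 (chr17:46782642-46782671, minus), where these letters were not in the window.
Rps27: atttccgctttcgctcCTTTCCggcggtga
Rps27rt: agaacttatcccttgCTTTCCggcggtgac
Rpl18: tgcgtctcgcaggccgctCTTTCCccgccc
Rps27l: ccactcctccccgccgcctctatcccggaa
Rps28: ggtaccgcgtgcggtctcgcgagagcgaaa
Rpl7l1: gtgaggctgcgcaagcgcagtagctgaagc

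These matches describe the letters around annotated starts, and the data hold no measure of where transcription began or of translation. Genes with and without the letters stood on both sides of 0 between the libraries: Rpl18 was at 0.16 and Rps27 at -0.15 with it, and Rpl7l1 at 0.40 and Rps28 at -0.29 without it.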

How the data were processed

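The values are counts of UMIs for each gene in each barcode, not normalized, which the authors deposited; per the file headers they come from Cell Ranger 8.0.1. Seurat 4.3.0 and mm39 appear in the submitters' processing notes, without roles. The libraries are 10x 3′ libraries of 2 groups with 1 library each. The sources used here name no barcode filter by the authors, and no doublet caller was run. From these counts, cells were kept by genes, mitochondrial share and CD8 and CD3 UMIs, and UMIs were summed over cells and expressed as CPM. The interval of a log2 ratio is exact, from the binomial split of its 2 counts, and that of a share is exact (Clopper-Pearson), at 95% for counting error only. Each of 7 states needed at least 3 marker UMIs (2 for effector), taken in the order proliferating, effector, memory, interferon, early-activated, HSP70-high and naive; all other cells were unassigned. Genes needed 200 UMIs over both groups of cells compared. Named members were the 8 highest and 8 lowest DHEA over CTRL, the 6 highest and lowest memory over naive, the 5 with most UMIs, paralogs with partners, role groups, and 3 highest and lowest of each list; members named in other contrasts were chosen after their values were seen, and a few genes that these rules name are not reported here. Members, lists and gates were chosen with earlier results of these data known. The ratio step was tested on simulated counts. Reference sequences are GENCODE M21 and RefSeq, both GRCm38, an earlier build than mm39. Tools were Python 3.11.15, numpy 2.4.6, scipy 1.17.1, pandas 2.3.3, biopython 1.88 and matplotlib 3.10.9, with edgeR 4.0.16 in R 4.3.3 for TMM factors only.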

Additional observations from a re-analysis of the deposited data

Results flagged for a closer look

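The ribosomal protein share, DHEA minus CTRL, was -3.504 points in proliferating cells and -4.13 points in effector-phenotype cells, whereas it was 0.56 points in naive-phenotype cells. The states thus moved in opposite directions with 1 library per group, and the difference between them was not tested. The groups are small, with 86 DHEA and 44 CTRL proliferating and 238 and 37 effector-phenotype cells, and their median depth was 6454 UMIs in DHEA and 11305 in CTRL for proliferating cells and 3957 and 6731 for effector-phenotype cells.

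Barcodes left out for at least 10% mitochondrial UMIs had a far lower ribosomal protein share than the kept cells. It was 5.89% (5.83 to 5.95) of UMIs in 453 barcodes of DHEA and 4.56% (4.497 to 4.62) in 282 of CTRL. In the kept cells it was 34.1% in DHEA and 33.7% in CTRL.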

How the results depend on the processing

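No paired analysis was possible because each group has 1 library and the labels give no replicate numbers; for the same reason no library could be left out. The share difference of 0.33 points between the libraries stayed above 0 in every setting tried: 0.308 with a mitochondrial limit of 20%, 0.244 without the CD8 and CD3 requirement, 0.432 as a mean over cells, 1.26 with depth classes weighted alike, 0.578 with cells thinned to 1000 UMIs and, chosen after seeing the data, 0.384 without cells under 2000 UMIs and 0.422 without cells under 15% ribosomal protein UMIs. As a mean over cells, the depth classes gave 5.69 points under 2000 UMIs, 1.84 from 2000 to under 4000 and -0.606 at 10000 or more. Memory minus naive was 0.367 in DHEA and 0.761 in CTRL, and it turned round with thinned gates (-0.419 and -0.221). With depth classes weighted equally it was near 0 in DHEA (-0.0192) and turned round in CTRL (-0.706), there without the class under 2000 UMIs. The classes differed in sign in both libraries. Memory minus naive was 0.196 and 0.502 with a memory gate of 6 UMIs and 0.478 and 0.708 as a mean over cells. The cause of these turns was not tested. Effector minus naive was -9.87 in DHEA and -5.19 in CTRL, and -9.35 and -3.26 without cells that had a natural killer or myeloid marker UMI, also chosen after seeing the data. With thinned gates 28 members were higher and 41 lower in both libraries. The median member ratio of 0.03 became 0.0565 with TMM factors (0.992 in DHEA and 1.01 in CTRL), which put 58 members above 0 (51 without them) and 53.8% of all genes (49.5% without them). Of the values for single members under other settings, 9 of 192 had the other sign, in 7 members, among them Rpl35a at 0.0017 in naive-phenotype cells (-0.0282 in all cells), Rps21 at 0.0007 with TMM (-0.0212 without) and Rps19bp1 at -0.0741 in thinned cells (0.0656 in all). Cells thinned to 1000 UMIs left out 137 DHEA and 8 CTRL cells. Counting error limits members with few UMIs, such as Rpl7l1, which had enough in 7 of 13 classes. With 1 library per group the spread between animals is unknown.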
